A study of Saccharomyces cerevisiae with 6 samples.

Results

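The mating-type specific genes of budding yeast described here were 10 genes, 6 of them a-specific (MFA1, YDR461W; MFA2, YNL145W; STE2, YFL026W; STE6, YKL209C; AGA2, YGL032C; and ASG7, YJL170C) and 4 alpha-specific (MF(ALPHA)1, YPL187W; STE3, YKL178C; SAG1, YJR004C; and AFB1, YLR040C). They were chosen by name, with earlier results of these data known, among 6525 open reading frames (ORFs) labelled in the deposited table. Poly(A) RNA of exponentially growing cells was sequenced by strand, with total RNA of Schizosaccharomyces pombe added as a spike-in, in 3 groups of 2 libraries. These were wild type, a strain without RTT109, and a strain without both HST3 and HST4, called the double deletion. Rtt109 acetylates newly made histone H3, an acetyl group that the sirtuins Hst3 and Hst4 take off again. All 3 strains carried a deletion of BAR1 together with the constructs labelled URA3::GDP-TK(7x) and AUR1c::ADH-Hent1, a thymidine kinase and a nucleoside transporter, and the alleles can1-100, ura3-1, leu2-3 112, trp1-1 and his3-11 15. Wild type, labelled MATa, and the double deletion (Δhst3::HygMX and Δhst4::NatMX), labelled MATalpha, also carried Rpb3-3HA::TRP and ade2-1::ADE2. The rtt109 strain (∆rtt109::Kan), labelled MATa, had neither of these and was labelled ade2-1, GAL, psi+ and RAD5+. Each group was 1 genotype, so every difference below is between strains that differ in more than the named deletion, and nothing in the labels says whether the 2 libraries of a group came from separate cultures.

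Haploid yeast cells mate as a or as alpha. An a cell makes a-factor, a short lipid-bearing peptide encoded by MFA1 and MFA2, exports it through the transporter Ste6, and senses its partner with Ste2, the receptor for alpha-factor. An alpha cell makes alpha-factor, mostly from MF(ALPHA)1, and senses a-factor with Ste3. In alpha cells the repressor alpha2 and the general factor Mcm1 bind an operator upstream of the a-specific genes and shut them off, while alpha1 and Mcm1 turn the alpha-specific genes on. In a cells neither alpha factor is made from the expressed mating-type locus, while silent copies of both mating-type cassettes lie at HML and HMR.

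The operator letters are shown to set a-specific genes beside alpha-specific genes by sequence, in an arrangement that was chosen after the sequences had been seen. They come from the RefSeq genome of assembly R64, within 400 bases upstream of each start codon. Capitals mark the Mcm1 core in the middle (CC and GG with 6 bases between them) and any alpha2 site CNTGTAA, on either strand, within the 12 bases on each side of the core, so that site and core do not overlap.
MFA1: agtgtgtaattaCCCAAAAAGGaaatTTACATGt
MFA2: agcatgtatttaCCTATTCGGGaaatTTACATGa
STE2: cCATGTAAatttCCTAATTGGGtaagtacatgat
STE6: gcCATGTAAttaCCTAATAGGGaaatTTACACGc
AGA2: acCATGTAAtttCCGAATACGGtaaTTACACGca
ASG7: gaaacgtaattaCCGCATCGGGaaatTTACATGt
BAR1: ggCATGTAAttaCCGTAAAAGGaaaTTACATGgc
MF(ALPHA)1: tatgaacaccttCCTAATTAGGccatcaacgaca
SAG1: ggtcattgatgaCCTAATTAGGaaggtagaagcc

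Each of the 6 a-specific genes had a core with at least 1 match to CNTGTAA beside it, and STE6, AGA2 and the deleted BAR1 had 2. None of the 4 alpha-specific genes had that arrangement. Only exact matches were counted, so a gene with 1 match may hold a further site that differs from this pattern. It occurred in 25 of 6002 upstream windows (0.417%), and the arrangement was set after these sequences had been seen. The letters taken singly were common: the alpha2 site lay in 17.9% of windows and the core in 39.7%, including 1 and 3 of the alpha-specific windows. TGAAACA, the element of the pheromone-response factor Ste12, lay in 9.86% of windows, in 5 of the 6 a-specific ones (all but ASG7) and in 0 of the 4 alpha-specific ones. The operator of MFA2 was at chr14:352161-352194 on the forward strand, with its core ending 232 bases before the start codon, and that of ASG7 was nearest, at 137 bases (chr10:101904-101937, reverse strand). The others were at chr4:1384940-1384973 (MFA1, forward), chr6:82350-82383 (STE2, forward), chr11:46476-46509 (STE6, reverse) and chr7:437100-437133 (AGA2, reverse). BAR1's was at chr9:322076-322109, MF(ALPHA)1's core at chr16:193327-193360 (both forward) and SAG1's at chr10:445186-445219 (reverse). AFB1 had 2 overlapping core matches, not printed above, that start 223 and 222 bases upstream. The first, with its flanks, was at chr12:229784-229817 (reverse). These matches describe letters in the reference, not binding in these strains.

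The ORFs were read where the table labels them, on a build it does not state: MFA1 on chromosome 4 (1385201 to 1385350), MFA2 on 14 (352451 to 352600), STE2 on 6 (82601 to 83950), STE6 on 11 (42451 to 46350), AGA2 on 7 (436601 to 436900) and ASG7 on 10 (101151 to 101850). The alpha-specific labels were MF(ALPHA)1 on chromosome 16 (193651 to 194200), STE3 on 11 (114401 to 114700), SAG1 on 10 (442951 to 444950) and AFB1 on 12 (229401 to 229650). Values are mean sense-strand coverage per 50-base bin of the ORF in the spike-in scaled columns. Being per bin, they allow only a rough comparison of levels between genes. Coverage lies about 2 bins lower than the labels, as described below, and MFA1 and MFA2 each rest on 1 bin. In the first wild-type library MFA2 had 60.5 in that bin and 79.3 in the bin before the ORF. Coverage summed to between 474278 and 784679 per library, lowest in both rtt109 libraries. On the forward strand 96.2% to 97.9% of ORF coverage was on the sense strand and on the reverse strand 97.4% to 98.9%. RTT109 had 0.763 and 0.830 in wild type and 0.00123 and 0.00342 in its deletion, HST3 went from 1.32 and 1.36 to 0.0131 and 0.00999 in the double deletion, and HST4 from 0.470 and 0.672 to 0.0617 and 0.00648. BAR1, the protease that degrades alpha-factor and is deleted in every strain, was listed at 0 in all 6 libraries. Tests used limma on log2 of the value plus a pseudocount of 0.0548, over 5250 genes with Benjamini-Hochberg adjustment, and a gene was called at an adjusted p under 0.05. Fold changes are on that scale, which understates those of low genes.

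In all 3 strains the a-specific genes for pheromone, receptor, exporter and agglutinin stood above each of the alpha-specific genes over the labelled bins. The order of the levels in wild type was MFA2, STE2, MFA1, AGA2, STE6, AFB1, SAG1, ASG7, MF(ALPHA)1 and STE3, and no 2 neighbours in that order overlapped between their libraries. The lower STE2 library (15.5) was close to the higher MFA1 library (14.7), and places in the order may depend on where the labels lie. In the rtt109 deletion the order was the same, but the libraries of STE2 and MFA1 overlapped. In the double deletion ASG7 stood above SAG1, with overlapping libraries. The double deletion, although labelled MATalpha, had MFA2 at 229 times the level of MF(ALPHA)1, and STE2 at 76.5 times the level of STE3 in the better-covered stretch described below. The matching ratios were 1862 and 1439 in wild type and 350.0 and 184 without RTT109. Its a-specific transcripts thus go against its label, so below it is named by its deletions only.

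**Figure D1:**
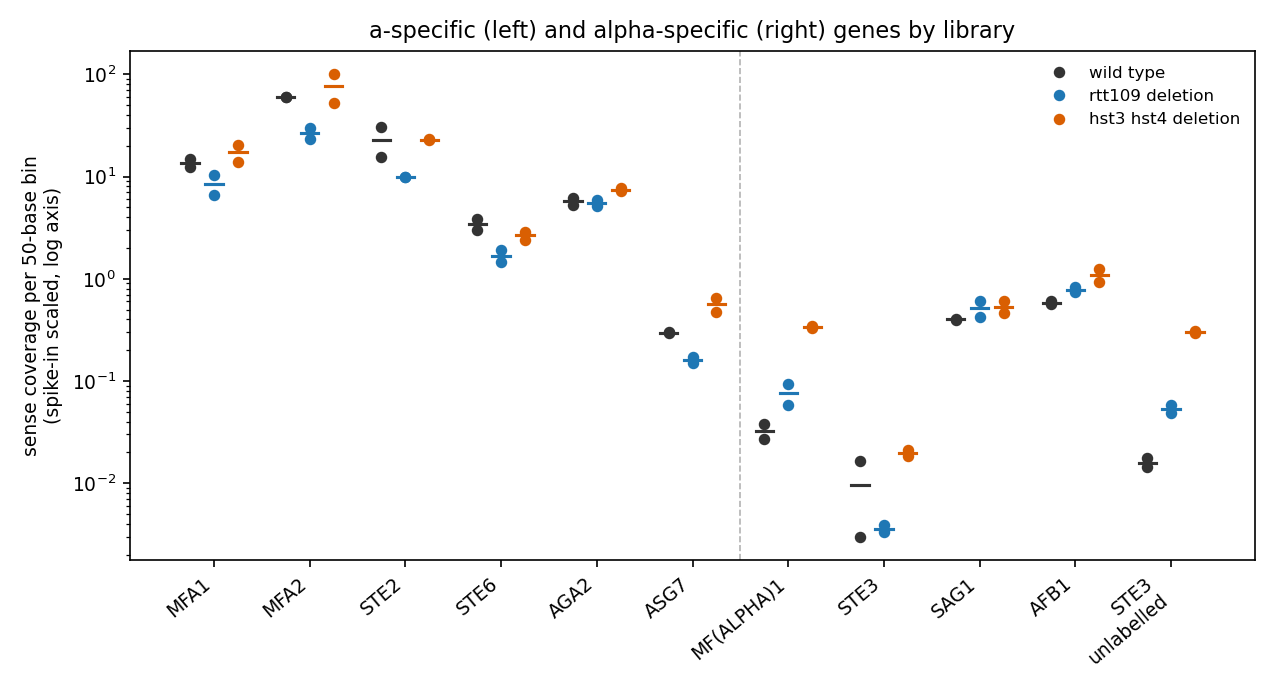
Sense coverage per 50-base bin, spike-in scaled, on a log axis, for the 10 genes and for the unlabelled stretch of STE3. Each point is 1 library, short lines are group means, a-specific genes lie left of the dashed line, and colours give the strains: MFA2 spans 23.2 to 101 and MF(ALPHA)1 0.0271 to 0.345.

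MFA2, an a-factor gene, was the most abundant of the 10 genes. It had 60.5 and 60.0 in wild type, 23.2 and 29.7 without RTT109 and 101 and 52.7 in the double deletion. Both rtt109 libraries were the lowest, and the double deletion's pair spread on both sides of wild type. MFA1, the other a-factor gene, had 14.7 and 12.3 in wild type, 6.64 and 10.3 without RTT109 and 20.5 and 13.9 in the double deletion. Its rtt109 libraries were again below the rest, and its other 2 groups overlapped. MFA2 was 4.46 times MFA1 in wild type, 3.13 times in the rtt109 deletion and 4.47 times in the double deletion.

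Both a-factor genes are short, and each value rests on 1 inner bin of the 3 labelled. Their coding sequences in assembly R64 (chr4:1385176-1385286 and chr14:352414-352530, both forward strand) are printed because reads must tell these 2 genes apart. They were identical in 72.5% of 120 aligned columns, and capitals mark the longest run of letters that both share, 11 bases.
MFA1: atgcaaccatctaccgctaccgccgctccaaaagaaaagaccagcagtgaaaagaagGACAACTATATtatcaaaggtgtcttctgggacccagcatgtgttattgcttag
MFA2: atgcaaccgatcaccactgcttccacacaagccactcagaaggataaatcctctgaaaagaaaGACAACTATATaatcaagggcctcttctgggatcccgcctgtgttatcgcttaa

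STE2, the alpha-factor receptor, had 15.5 and 30.2 in wild type, 9.84 and 9.83 without RTT109, and 22.6 and 23.4 in the double deletion. The wild-type pair was the least alike of the 3 and enclosed the double deletion's pair, while the rtt109 pair lay below all others. STE6, the ATP-driven exporter of a-factor, had 2.98 and 3.83 in wild type, 1.45 and 1.89 without RTT109 and 2.90 and 2.40 in the double deletion. The 3 groups of STE6 did not overlap, with wild type highest, though 2.98 in wild type was close to 2.90 in the double deletion. Here and below, groups apart were common: over all tested genes, 48.5% had rtt109 below wild type. The double deletion was above the rtt109 deletion in 51.1%, and the share with all 3 groups apart was not counted. The 39 bins towards the end of STE6 had more coverage than the 39 towards its start in every library, for example 4.05 against 1.96 in the first wild-type library.

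AGA2, the adhesion subunit of a-agglutinin on the cell surface, was the a-specific gene whose group means lay closest together. Its levels were 5.31 and 6.11 in wild type, 5.96 and 5.13 without RTT109 and 7.70 and 7.16 in the double deletion. Wild type and the rtt109 deletion overlapped, and the double deletion lay above both. ASG7, a membrane protein that dampens pheromone signalling after mating, was the lowest a-specific gene, with 0.298 and 0.297 in wild type, 0.170 and 0.150 without RTT109 and 0.475 and 0.645 in the double deletion. Its 3 groups were apart, with the rtt109 deletion lowest and the double deletion highest.

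The rtt109 deletion was compared with wild type to see what the a-specific genes do without the acetyltransferase. None of the 8 tested members was called (6 a-specific and 2 alpha-specific), where 3.37% of all 5250 genes were, and 3 of the 8 (MFA2, STE2 and STE6) were lower at an unadjusted p under 0.05, as were 14.2% of all genes. MFA2 had a log2 fold change of -1.20 ± 0.38 (SE; limma adjusted p = 0.0733), STE2 one of -1.13 ± 0.38 (limma adjusted p = 0.0940) and STE6 one of -1.004 ± 0.37 (limma adjusted p = 0.133). ASG7 (-0.72), MFA1 (-0.70) and AGA2 (-0.04) had smaller values. The libraries did not overlap, with rtt109 lower, in 5 of the 6 a-specific genes, AGA2 being the exception, and in 48.5% of all genes. The median over all tested genes was itself -0.37, and relative to it AGA2 stood at 0.33 and the other 5 a-specific genes between -0.83 and -0.33. The median of the 6 was -0.86. STE2 rested on the wild-type libraries: its log2 fold change was -1.62 (limma adjusted p = 0.0265) without wild-type replicate 1 and -0.65 (limma adjusted p = 0.756) without replicate 2. Here and below, where a library is left out, the remaining 1 is assumed to vary like the other groups, which alone give the spread. With only the 2 groups fitted, MFA2 was called lower (log2 fold change -1.20, limma adjusted p = 0.0406), and leaving out either double deletion library gives that same fit, since a lone library of the third group adds no spread.

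The alpha-specific SAG1 and AFB1 had values of the other sign in this comparison, 0.31 ± 0.37 (SE; limma adjusted p = 0.601) and 0.39 ± 0.36 (limma adjusted p = 0.508). In both genes the rtt109 libraries were above wild type, as in 11.6% of all genes.

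Between the double deletion and wild type, 0 of the 8 tested members were called, against 2.63% of all tested genes, and 2 (ASG7 and AFB1) were higher at an unadjusted p under 0.05, as were 7.01% of all genes. The double deletion libraries lay above both wild-type libraries in AGA2, ASG7, SAG1 and AFB1, which held for 21.1% of all genes, and below both in STE6, which held for 8.93%. ASG7 had a log2 fold change of 0.79 ± 0.36 (SE; limma adjusted p = 0.530) and AFB1 one of 0.82 ± 0.36 (limma adjusted p = 0.461). The other 5 a-specific genes ranged from -0.35 in STE6 to 0.38 in AGA2. All had a limma adjusted p of 0.999785, and the median over all genes was 0.04. STE2 differed by 0.09 ± 0.38 (SE) on the log2 scale, and the sign of that value and of MFA2's (0.28) turned when a single library was left out.

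The 2 deletions act on the same acetyl mark from opposite ends, and the direct comparison between them gave the only calls among the members. ASG7 (log2 fold change 1.51 ± 0.36, SE; limma adjusted p = 0.0199) and MFA2 (1.47 ± 0.38, limma adjusted p = 0.0319) were higher in the double deletion than in the rtt109 deletion, 2 of 8 tested members, where 1.35% of all genes were called and 0.781% were called higher. STE2 (1.22, limma adjusted p = 0.110) and MFA1 (1.03, limma adjusted p = 0.201) had an unadjusted p under 0.05, as had 13.2% of all genes in that direction, but did not pass, nor did STE6 (0.66) or AGA2 (0.42). The libraries did not overlap in any of the 6 a-specific genes, which also held for 51.1% of all genes in that direction. The median over all genes was 0.41, and relative to it MFA2 stood at 1.07 and ASG7 at 1.10. Neither call held once each library was centred on its median (limma adjusted p of 0.256 for MFA2 and 0.223 for ASG7) or when either rtt109 library was left out, although the log2 fold changes stayed of like size (1.30 and 1.65 for MFA2, 1.57 and 1.44 for ASG7, without rtt109 replicate 1 and 2). MFA2 also lost its call without double deletion replicate 1 (1.005, limma adjusted p = 0.408) and ASG7 without replicate 2 (1.30, limma adjusted p = 0.179). This comparison shares its rtt109 libraries with the first and its double deletion libraries with the second.

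**Figure D2:**
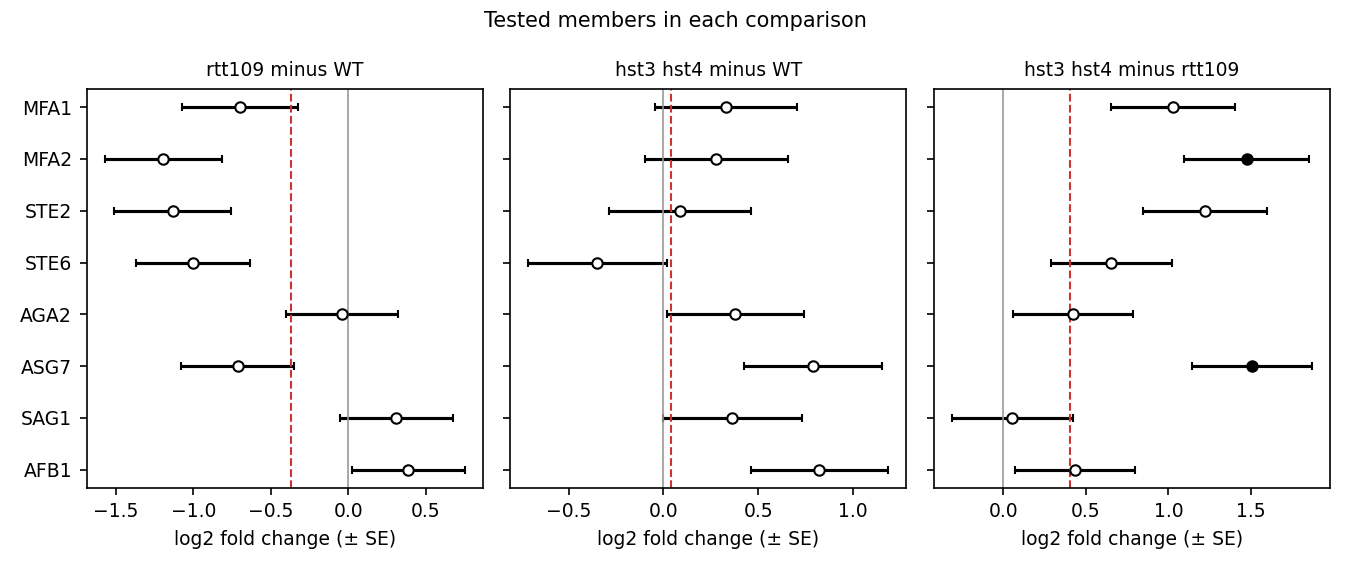
Log2 fold change with its SE (limma, n = 2 libraries a group) of the 8 tested genes in the 3 comparisons; the red dashed line is the median of all 5250 genes and filled points are called. MFA2 and ASG7 are filled, in the comparison of the double deletion with the rtt109 deletion.

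The alpha-factor gene MF(ALPHA)1 was low in every strain, and its groups stood apart. In bulk RNA, a few cells with much of a transcript and many cells with little of it cannot be told apart. It had 0.0375 and 0.0271 in wild type, 0.0582 and 0.0929 without RTT109 and 0.327 and 0.345 in the double deletion. The 3 groups did not overlap, and the double deletion's mean was 10.4 times wild type's and 4.45 times that of the rtt109 deletion. Among tested genes, the rtt109 libraries were above wild type in 11.6%. The double deletion's were above wild type in 21.1% and above the rtt109 deletion in 51.1%. MF(ALPHA)1 fell below the filter on low values and so was not among the tested genes. With no filter its log2 fold change against wild type was 2.17 ± 0.22 (SE; limma adjusted p = 0.0768) in the double deletion and 0.57 (limma adjusted p = 0.293) in the rtt109 deletion. Without the filter, far fewer genes were called in each comparison than in the main fit, as counted at the end. Coverage on its opposite strand was at most 0.00825 in any library.

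MF(ALPHA)2, the minor alpha-factor gene, was lower still, at 0.0159 and 0.0310 in wild type, 0.0209 and 0.0197 without RTT109 and 0.0396 and 0.0636 in the double deletion. It was the only alpha-factor gene with more coverage on the opposite strand than on its own, 0.288 to 0.510 across libraries, whose part in its sense values was not tested. The longest run of letters shared by the 2 alpha-factor genes was 23 bases. MF(ALPHA)1 itself holds a run of 81 bases 2 times, within its tandem copies of the mature peptide, and how reads in such a repeat were placed is not given in the sources used here.

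STE3, the a-factor receptor, is labelled in the table over 300 bases only, of 1413 in RefSeq, and those 6 bins overlap YKL177W on the other strand. Over the 4 inner bins it had 0.00298 and 0.0163 in wild type, 0.00385 and 0.00329 without RTT109 and 0.0209 and 0.0186 in the double deletion. These are means of 0.5 to 3.25 times the smallest coverage step of each library, too low to order the strains. The 22 bins that follow in the direction of the gene carry no label (chromosome 11, 113301 to 114400), and there the sense coverage was 0.0143 and 0.0175 in wild type, 0.0490 and 0.0577 without RTT109 and 0.292 and 0.309 in the double deletion. The groups did not overlap, in the same order as for MF(ALPHA)1, and the double deletion's mean was 18.9 times and the rtt109 deletion's 3.36 times that of wild type.

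Within the unlabelled stretch of STE3 the double deletion had 0.560 and 0.523 in the third nearest the 3′ end, 0.274 and 0.348 in the middle and 0.0725 and 0.0881 in the third nearest the start. Coverage thus rose towards the 3′ end of the gene. The opposite strand, over the labelled bins, had 0.0106 and 0.00362 in wild type, 0.0244 and 0.0428 without RTT109 and 0.245 and 0.206 in the double deletion. Over these bins the opposite strand was above the sense strand in both mutants, where the rtt109 deletion had 0.00514 and 0.00439 on the sense strand. In wild type the libraries were split (0.0106 against 0.00331 on the sense strand, and 0.00362 against 0.0118). With labelled and unlabelled bins joined and no filter, the log2 fold change of STE3 in the double deletion against wild type was 2.13 ± 0.18 (SE; limma adjusted p = 0.0699), and in the rtt109 deletion 0.52 (limma adjusted p = 0.287). That fit too called far fewer genes than the main one. This reading of the unlabelled bins was chosen after their values were seen.

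**Figure D3:**
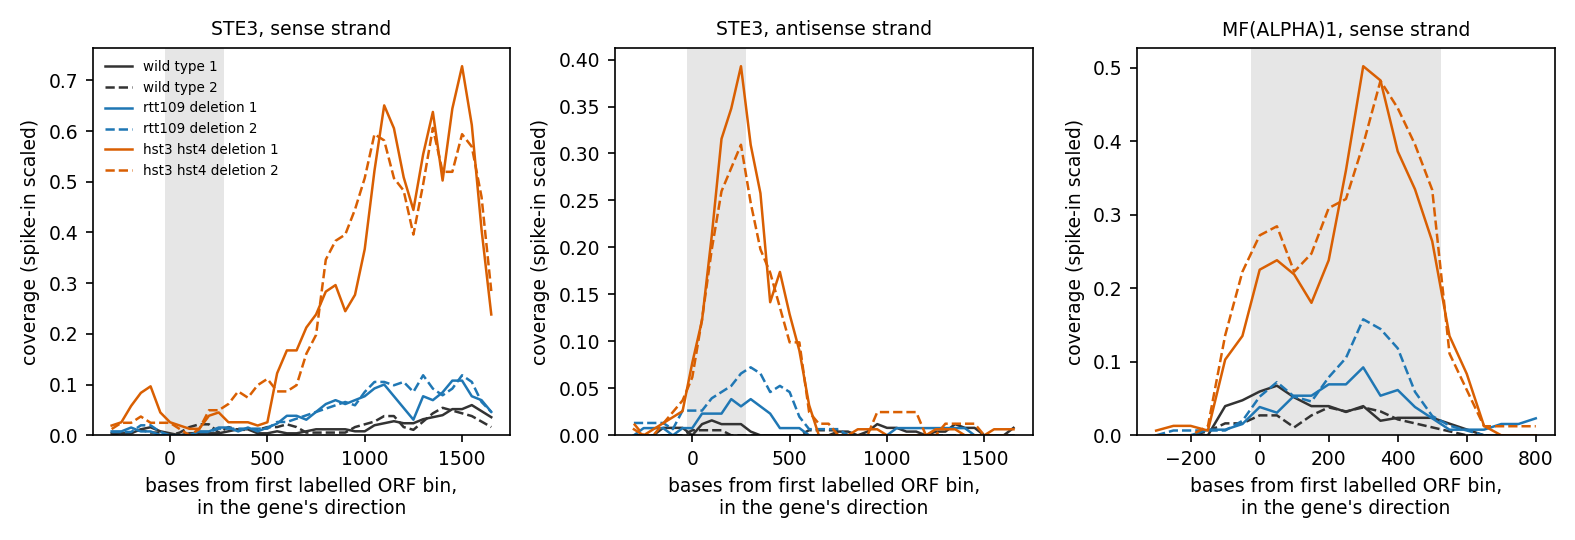
Coverage (spike-in scaled) by distance in bases from the first labelled ORF bin, in the direction of the gene, for STE3 on its sense and opposite strands and for MF(ALPHA)1; each line is 1 library and grey marks the labelled ORF. Both double deletion libraries stand above the other 4 in all STE3 sense bins shown except those at 100 and 150 bases, where wild type reaches higher. Before 100 bases these sense values are low, at most 0.0966. On the opposite strand of STE3 they stand above at -100 and from 0 to 600 bases, and for MF(ALPHA)1 from -100 to 650 bases. In the other bins the libraries mix near 0.

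SAG1 and AFB1 were the alpha-specific genes with the higher levels. SAG1, the alpha-agglutinin that binds Aga2, had 0.397 and 0.403 in wild type, 0.422 and 0.610 without RTT109 and 0.461 and 0.608 in the double deletion. Both mutants were above wild type and overlapped each other, and no comparison called the gene. AFB1, a blocker of a-factor made by alpha cells, had 0.603 and 0.566 in wild type, 0.740 and 0.825 without RTT109 and 0.936 and 1.24 in the double deletion. Its 3 groups were apart in the order seen for MF(ALPHA)1, with a range of means of 0.585 to 1.09. The table labels 250 of its 675 bases, all shared with YLR041W on the other strand, and the 8 unlabelled bins that follow had more coverage, 1.06 and 1.23, 1.54 and 1.92, and 1.76 and 2.65 in the same order of strains. In wild type SAG1 and AFB1 were thus above ASG7, an a-specific gene, and far above MF(ALPHA)1 and STE3.

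The 6 a-specific genes varied together over the 6 libraries to unequal degrees, with a Pearson r between each gene and the mean of the other 5 of 0.927 for MFA2, 0.862 for STE2, 0.859 for MFA1, 0.798 for ASG7, 0.775 for STE6 and 0.643 for AGA2. The rtt109 libraries were the 2 lowest by the mean and the median log2 level of the 6 genes, as they were by the median of all tested genes (0.331 and 0.620, with the next library at 0.624). An exact permutation test over libraries of that median gave p = 0.333 for each comparison, the smallest value that 2 against 2 libraries allow. Among all other tested genes, the 5 whose pattern was most like their mean were CLB5, a B-type cyclin of S phase (r = 0.996), ECM10 (0.988), INP1 (0.985), UGO1 (0.985) and ICS2 (0.983). These r are descriptions over 6 libraries that differ in depth, where each library's depth and scaling act on all of its genes. CLB5 had 0.694 and 0.927 in wild type, 0.359 and 0.426 without RTT109 and 1.06 and 0.925 in the double deletion, and it was not called (limma adjusted p = 0.156, 0.999785 and 0.0921 in the 3 comparisons).

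Of the 16 genes of pheromone signalling, 2 were called lower and 0 higher in the rtt109 deletion against wild type, where 0.895% of all genes were called lower. FAR1, which arrests the cell cycle and orients the cell in response to pheromone, had 1.37 and 1.79 in wild type, 0.462 and 0.591 without RTT109 and 1.44 and 1.60 in the double deletion. It fell by 1.49 on the log2 scale in the rtt109 deletion (limma adjusted p = 0.0116) and was higher in the double deletion than there (1.45, limma adjusted p = 0.0283). STE18, the gamma subunit of the G protein that the receptors engage, had a log2 fold change of -1.37 (limma adjusted p = 0.0247) in the rtt109 deletion. Its sense coverage of 0.514 and 0.322 in wild type sat opposite 16.9 and 12.8 on the other strand, against 8.43 and 11.2 in the rtt109 deletion, and the part of that strand in the result was not tested. The list had a median of -0.58 in the rtt109 deletion, beside -0.37 over all genes. Between the double deletion and wild type 0 of its 16 genes were called, where 2.63% of all genes were.

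Of the 8 mating genes that pheromone induces, 4 passed the filter on low values, and 1 was called lower in the rtt109 deletion, where 0.895% of all genes were. FUS1, a membrane protein needed for cell fusion, had 0.582 and 0.805 in wild type, 0.189 and 0.178 without RTT109 and 0.386 and 0.706 in the double deletion, and it fell by 1.64 on the log2 scale in the rtt109 deletion (limma adjusted p = 0.00672). The 4 had a median log2 fold change of -1.17 there, beside -0.37 over all genes. No gene of the list was called in the other 2 comparisons, where 2.63% (double deletion against wild type) and 1.35% (between the deletions) of all genes were.

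The enzymes that mature the pheromones are made by both mating types or serve other proteins too. Of 7 for a-factor, RCE1, the protease that trims its lipid-bearing end, was called lower in the rtt109 deletion (log2 fold change -1.29, limma adjusted p = 0.0401) and higher in the double deletion than there (1.60, limma adjusted p = 0.0149). Its levels were 0.766 and 1.27 in wild type, 0.422 and 0.324 without RTT109 and 1.34 and 1.14 in the double deletion. Over all tested genes, 0.895% were called lower in the rtt109 deletion and 0.781% higher in the double deletion than there. None of the 3 enzymes for alpha-factor was called; KEX1 had -0.60 and STE13 -0.65 in the rtt109 deletion against wild type. None of 7 regulators of cell-type genes (MCM1, TUP1, CYC8 and SIR1 to SIR4) was called in any comparison. In the rtt109 deletion SIR2 was at -0.78 (limma adjusted p = 0.245) and SIR4 at -0.49 (limma adjusted p = 0.410). Over all genes, 3.37% were called in the rtt109 deletion and 2.63% in the double deletion, each against wild type. Between the deletions 1.35% were, so no call in lists this short lies near those shares.

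All 12 genes that haploids of either type express and diploids repress were tested, and 3 were called lower in the rtt109 deletion, where 0.895% of all genes were: HO, and FAR1 and STE18, which the pheromone signalling list also holds. HO, the endonuclease that starts mating-type switching, had 2.13 and 4.83 in wild type, 0.374 and 0.353 without RTT109 and 2.02 and 2.30 in the double deletion. It fell by 2.96 on the log2 scale in the rtt109 deletion (limma adjusted p = 1.12e-06), and it was higher in the double deletion than there (2.40, limma adjusted p = 0.000275). The list's median was -0.99 in the rtt109 deletion and -0.08 in the double deletion, each against wild type, beside -0.37 and 0.04 over all genes. The calls of FAR1, STE18, FUS1, RCE1 and HO in the rtt109 deletion were each lost when either rtt109 library was left out (limma adjusted p of 0.164 to 0.530). The folds stayed of like size: -2.999 and -2.93 for HO, -1.67 and -1.604 for FUS1, -1.33 and -1.65 for FAR1, -1.30 and -1.44 for STE18 and -1.46 and -1.13 for RCE1, without replicate 1 and 2. Those of FAR1, FUS1 and RCE1 were also lost without wild-type replicate 2 (limma adjusted p of 0.166, 0.119 and 0.489), and that of STE18 without wild-type replicate 1 (limma adjusted p = 0.141). With each library centred on its median, STE18 (limma adjusted p = 0.157), FUS1 (0.0749) and RCE1 (0.133) did not pass, while FAR1 and HO did. None of these genes passed with a pseudocount 10 times larger or with no filter. FAR1 then had a limma adjusted p of 0.167 and 0.124, and HO one of 0.148 and 0.123. Between the deletions, FAR1, RCE1 and HO did not pass with centring (limma adjusted p of 0.176, 0.185 and 0.0540) or without either rtt109 library. The larger pseudocount and no filter also took these calls away (limma adjusted p of 0.367 and 0.285 for each gene). FAR1 and RCE1 also did not pass without double deletion replicate 1 (limma adjusted p of 0.0737 and 0.0847), nor FAR1 without its replicate 2 (limma adjusted p = 0.149).

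Coverage and labels were not aligned in the table. On forward-strand genes the median coverage was 0.506 of the gene's own mean 2 bins before the first labelled ORF bin and had dropped to 0.112 at the last. On reverse-strand genes it was 0.0350 at the first labelled bin and still 0.881 at 2 bins past the last. Coverage thus lay about 2 bins lower in position than the labels on both strands. For MFA1 and MFA2 the 4 bins before the ORF held 9.88 and 43.1 in the first wild-type library, and the 4 bins after it 0.212 and 0.726. Read 2 bins lower, all 8 tested members kept the sign of their fold change in the 3 comparisons, and MFA2 (limma adjusted p = 0.0226) and ASG7 (limma adjusted p = 0.0214) were the members called between the deletions.

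**Figure D4:**
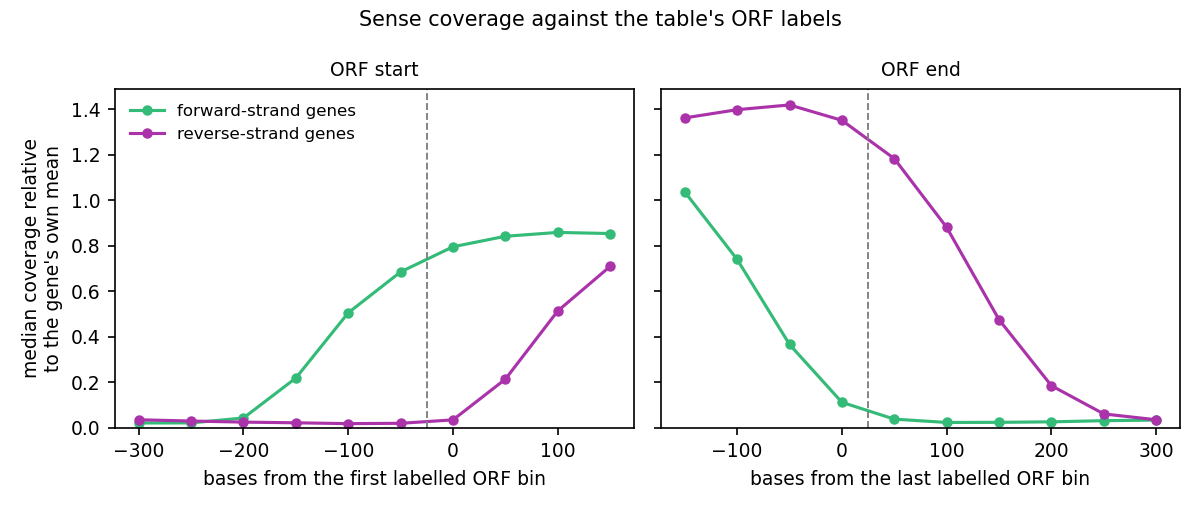
Median sense coverage relative to each gene's own mean, by distance in bases from the first (left) and last (right) labelled ORF bin, for forward-strand and reverse-strand genes over all libraries; dashed lines mark the labelled edge. Forward-strand coverage begins before the label (0.506 at 2 bins before it), and reverse-strand coverage runs past its end (0.881 at 2 bins after it).

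Opposite-strand coverage at the abundant a-specific genes differed between the libraries of each strain. At MFA1, MFA2, STE2, STE6 and AGA2 the median of the opposite strand, as a percent of the sense strand, was 1.54 and 0.0815 in wild type, 0.862 and 0.107 without RTT109 and 0.228 and 1.01 in the double deletion. By that median, 1 library of each group was several times above the other. AGA2 differed from it, with 1.46 and 0.475 in the double deletion, the reverse order, and 1.07 and 0.642 in the rtt109 deletion.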

How the data were processed

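The deposited table holds strand-specific coverage, a signal in bins of 50 bases, which the authors scaled to the S. pombe spike-in, and a second set normalized to 1, per the file headers. CASAVA 1.7.0 is named in the submitters' processing notes; for the aligner and budding yeast build, the sources used here give no name. A letter with no stated meaning stood in place of a value in 11670 of 240976 bins (4.84%), which were left out. Groups came from the titles. RefSeq R64 gave names (5871 of 6525 ORFs matched, 5833 with a value) and sequences, by its own coordinates; values use the table's labels.

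Sense coverage was averaged per gene over labelled ORF bins, without the first and last where 3 or more were usable, and without introns and bins shared with another ORF on that strand. limma 3.58.1 (R 4.3.3) was fitted to log2 of this mean plus 0.0548 (percentile 5 of the means above 0), with 3 group means, 3 residual and 35.0 prior degrees of freedom, after the lowest 10% by mean (583 genes) were left out; p-values were adjusted over 5250 genes (Benjamini-Hochberg). The p-values measure only the spread between these libraries, which may be technical. The script was tested on simulated data. Tables and sequences were read with Python 3.11.15 and Biopython 1.88. The smallest coverage step was 0.00397 to 0.0124; a larger step means fewer reads behind a value, and read numbers are unknown.

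The members and gene lists were chosen with earlier results of these data known. Named besides the members were MF(ALPHA)2, BAR1, the deleted genes, of each list those called (or the 2 with the smallest p), and the 5 genes most like the a-specific mean; YKL177W and YLR041W were named for their overlap. Alternatives covered pseudocount, filter, scaling, bins, groups fitted, replicate block, trend and leaving out each library. Replicates correlated at r = 0.963, 0.973 and 0.951 over genes. The MAT, HML and HMR genes are not analysed here.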

Additional observations from a re-analysis of the deposited data

Results flagged for a closer look

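Coverage outside the labelled sense bins of STE3 had a higher mean in both mutants than in wild type and entered no main value. The table does not label these bins for the gene or they are on the opposite strand. On the sense strand of the 22 unlabelled bins the mean was 0.301 in the double deletion and 0.0534 in the rtt109 deletion, against 0.0159 in wild type. On the opposite strand of the same bins it was 0.0528 and 0.0113, against 0.00212. There the rtt109 libraries (0.00771 and 0.0150) and wild type (0.00325 and 0.000987) lay near or below the smallest coverage steps. Such values are too low to order the rtt109 deletion and wild type. On the opposite strand of the labelled bins it was 0.225 and 0.0336, against 0.00711. The differences on the opposite strand were not tested.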

How the results depend on the processing

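With 2 libraries a group, calls depended on settings. Members called between the double deletion and the rtt109 deletion were 2, but 0 with a pseudocount 10 times larger, no filter (also with unlabelled bins of STE3 and AFB1 added), each library centred, quantile normalization, the columns normalized to 1 or the replicate block, 1 with an intensity trend, and 0 to 2 leaving out each library in turn. In the rtt109 deletion against wild type they were 0, 1 with only the 2 groups fitted, and 0 to 1 leaving out each library; in the double deletion against wild type 0 in every alternative. In these 3 comparisons (rtt109 deletion against wild type, double deletion against wild type, double against rtt109 deletion) genes called numbered 177, 138 and 71. They numbered 2, 1 and 0 with the larger pseudocount and 4, 2 and 1 with no filter, with or without the unlabelled bins. Leaving out each library gave 3 to 239, 2 to 129 and 0 to 90. The rtt109 deletion against wild type gave 295 with the trend, and the double against the rtt109 deletion 168. Centring gave 55 in the second comparison and 14 in the third (2 higher and 12 lower, against 41 and 30), quantile normalization 28 and 27 (5 and 22 in the third), the columns normalized to 1 gave 25 in the third (4 and 21), and only the 2 groups gave 2 in the second. In the first the split was 130 higher and 47 lower, 157 and 11 with centring, 130 and 18 with quantiles and 252 and 10 with the columns normalized to 1. The replicate block gave 107, 98 and 14 calls. Deviations of same-numbered libraries correlated at r = -0.21 for wild type and the rtt109 deletion. For wild type and the double deletion r was 0.06, and for the 2 deletions 0.21. Whether the numbers pair libraries was not tested. With crossed numbers the first comparison gave 216. The sign of AGA2 in the rtt109 deletion against wild type turned with centring (0.26), quantiles (0.27) and the columns normalized to 1 (0.37), and ran from -0.15 to 0.065 leaving out each library. That of SAG1 between the deletions turned with centring (-0.32), quantiles (-0.31) and the columns normalized to 1 (-0.29), and ran from -0.18 to 0.29 leaving out each library. In the double deletion against wild type, STE2 ran from -0.39 to 0.57 and MFA2 from -0.19 to 0.75 leaving out each library. Of 621 values of single genes under alternatives, 519 kept their sign and their side of the threshold, 86 lost and 4 gained a call and 12 turned; the causes were not tested. The depth of each library limits STE3 and MF(ALPHA)1, whose wild-type values were near the smallest coverage step.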
